A study of Homo sapiens with 2 samples.

Results

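The 10 genes that handle lipoproteins and stored lipid in macrophages, LPL, PLTP, APOE, APOC1, CETP, NCEH1, SOAT1, PLIN2, LPCAT3 and CYP27A1, were followed here in a genome-wide map of PAX-8 binding. Their peaks were taken from the peak annotation by gene symbol, and 9 of the 45360 peaks were assigned to 5 of these 10 genes: 4 to LPL, 2 to PLIN2 and 1 each to APOC1, SOAT1 and CYP27A1. PLTP, APOE, CETP, NCEH1 and LPCAT3 had no row and are given as unassigned. PAX-8 is a paired-box transcription factor, and ChIP-Seq maps where a factor sits on DNA by sequencing the fragments that its antibody pulls down. The map came from 1 PAX-8 ChIP library and 1 Input library, which is the same chromatin without antibody pull-down. Both were made from THP-1 cells, a human monocytic leukemia line, turned into macrophages with 160 nmol/L phorbol ester (PMA) for 24 h, made into foam cells by 48 h with ox-LDL, an oxidized lipoprotein that macrophages take up, and treated with 3-hydroxystearic acid (C18-3OH). Neither library came from vehicle-treated cells and each stands alone, so the values have no replicate error and binding with and without C18-3OH could not be compared. A peak list holds no expression, so the macrophage state of the cells could not be checked from it.

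Macrophages in the artery wall secrete lipoprotein lipase and apolipoproteins, which act on the lipoproteins around them, and they store surplus cholesterol as cholesteryl esters in cytosolic lipid droplets. The esters are made by SOAT1, coated in droplets by perilipins such as PLIN2 and hydrolysed again before the cholesterol can leave the cell. Oxysterols made by enzymes such as CYP27A1 activate the LXR receptors, which switch on APOE, APOC1, LPL, PLTP and LPCAT3 in macrophages. PAX-8 itself is best known from thyroid and kidney development.

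The APOC1 peak was the only peak of the 10 genes at a promoter, defined in the list as within 2 kb of a start site, so the DNA at that start is shown first. APOC1 encodes a small apolipoprotein of very-low-density and high-density particles that inhibits lipid transfer by CETP. The peak lay at chr19:45417766-45418389 (hg19), 624 bp long, and its centre was 149, 213 and 496 bp downstream of the 3 starts listed for the 4 APOC1 transcripts. It ran from 162 bp before to 461 bp after the start of NM_001379687, so it covered that start and the start of NM_001645. The RefSeq promoter window of APOC1 on GRCh38.p14 belongs to a start 347 bp downstream of the first one, which is the spacing of NM_001379687 in the peak list. The 186 bases from 250 to 65 bp before that start, at chr19:44914422-44914607 on the plus strand of GRCh38.p14, are printed 5′ to 3′. Capitals mark the 98 of these bases that the hg19 peak reached when counted by distance from the start. The rest of the peak, with its centre, is not printed. The hg19 bases themselves were not read.
APOC1: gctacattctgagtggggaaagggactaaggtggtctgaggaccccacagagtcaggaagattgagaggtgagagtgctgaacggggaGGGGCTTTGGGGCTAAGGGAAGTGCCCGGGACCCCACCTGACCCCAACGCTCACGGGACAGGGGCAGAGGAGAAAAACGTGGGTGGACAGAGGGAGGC
The stretch is 60.8% G and C, against a median of 58.7% over the longer windows, from 250 bp before to 50 bp after the start, of 35116 RefSeq promoters.

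Short motifs were searched on both strands of each promoter from 250 bp before to 50 bp after the start, which RefSeq gave for 9 of the 10 genes in 12 windows. LPL had no entry. The letters GCGTGA, the core of the PAX paired-domain site, were not found in the APOC1 window. That window ended before the centre of the APOC1 peak, which lay 149 bp after the start. The peak ran on to 461 bp, so a large part of it, with its centre, was not searched. GCGTGA occurred 53 to 48 bp before the SOAT1 start and 19 to 14 bp before the NCEH1 start, and in 7.82% of all promoters. Neither SOAT1 nor NCEH1 had a promoter peak. The GC box GGGCGG occurred in 9 of the 12 windows and in 44.95% of all promoters, and in APOC1 it stood 15 to 10 bp before the start, within the reach of the peak. The nuclear receptor letters AGGTCA were in none of the 12 windows and in 13.8% of all promoters. The macrophage factor PU.1 core GAGGAA was found only in windows of APOE and NCEH1 among these genes, and in 27.9% of all promoters. The TATA box TATAAA was found in PLIN2 and PLTP, and in 11.5% of all promoters. No match of one motif overlapped a match of another, and the 2 TATAAA matches of PLTP, one on each strand, overlapped each other. A match describes letters, not binding.

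The share of the 10 genes with a peak was near that of all genes. A peak was assigned to 5 of 10, which is 50.0% (Wilson 95% interval 23.7% to 76.3%), against 54.9% of 20037 RefSeq protein-coding genes. A promoter peak was assigned to 1 of 10, against 13.4% of all, an intronic peak to 2 of 10, against 27.5%, and an intergenic peak to 3 of 10, against 21.2%. LPL was the only one with 4 peaks, a number that 14.6% of all protein-coding genes reached or passed. Gene length was not matched in these shares. Of the 9 peaks, 6 were intergenic, 2 intronic and 1 at a promoter, against 38.7%, 34.9% and 7.48% of all peaks. The Wilson 95% interval of the intergenic share of 66.7% runs from 35.4% to 87.9% and holds the value of the whole list. No peak of the 10 genes was in the upstream class, from 2 to 20 kb before a start, or in an exon, which allows a share of up to 29.9% for each (Wilson 95% interval). None of the 9 peaks was assigned to a second gene, and only 3.92% of all peaks were assigned to 2 or more. For each of the 9, the start of its own gene was the nearest start in the list. The list gives starts only for genes with an assigned peak, so a nearer start of another gene could have been missed.

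**Figure D1:**
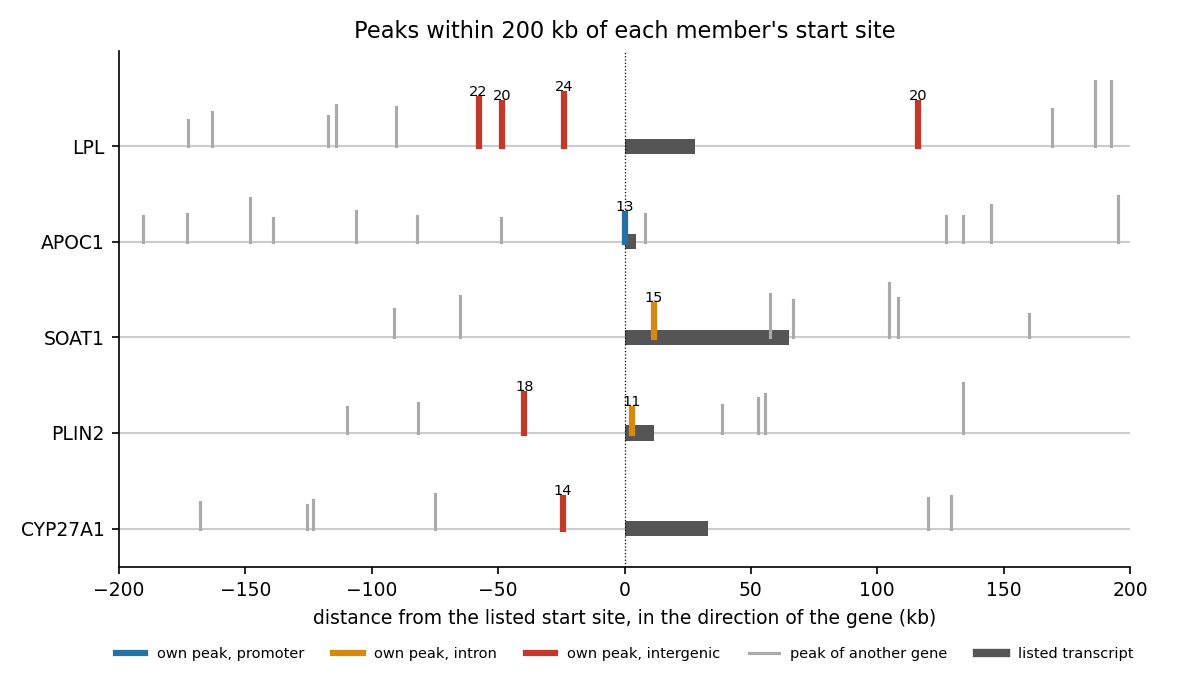
Distance in kb from the listed start site of each gene, in the direction of transcription, with each peak as a vertical line whose height is its number of tags. Coloured lines with numbers are the peaks assigned to that gene and grey lines those of other genes. The LPL peaks with 22, 20 and 24 tags lie on one side of the gene and the peak with 20 tags on the other, while only the APOC1 peak stands at a start site.

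LPL encodes lipoprotein lipase, the enzyme that hydrolyses triglyceride in lipoproteins outside the cell. Its 4 peaks lay outside the gene on chromosome 8, and none was within 20 kb of its start at 19796763. The peak at chr8:19738622-19739419, centred 57.7 kb upstream, held 22 tags, the number of sequenced fragments counted in it, and a listed fold enrichment of 10.91. The peak at chr8:19747973-19748978, 48.3 kb upstream, held 20 tags and a fold enrichment of 9.22. The peak at chr8:19772571-19773305, 23.8 kb upstream, held 24 tags and a fold enrichment of 8.78. These peaks stood 8.55 and 23.6 kb apart, as a group upstream of LPL with no peak of another gene among them. The outermost, 57.7 kb from the LPL start, was 64.1 kb from the INTS10 start and 32.0 kb from an intronic INTS10 peak. The last LPL peak, at chr8:19912438-19913158, lay 116 kb from the LPL start and 87.7 kb past the gene end, with 20 tags and a fold enrichment of 7.32. Between it and the nearest upstream peak, 139 kb held no peak, and the whole 28.0 kb gene is in that stretch. The exact Poisson 95% intervals of the tags, which cover counting error only, ran from 15.4 to 35.7 for the highest count and from 12.2 to 30.9 for the lowest, and the 4 intervals overlapped.

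The listed fold enrichment placed the LPL peak 57.7 kb upstream above 98.1% of all peaks and above 99.3% of the peaks of its chromosome, where 1.79% reached a fold of 10. The other LPL peaks were above 89.9%, 80.2% and 45.7% of all peaks by fold. All 4 held at least 20 tags, as did 14.0% of all peaks and 32.3% of those on chromosome 8. Within chromosome 8, the LPL peaks were above 67.7% to 84.5% of the peaks by tags, compared with 86.0% to 92.8% over the genome.

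**Figure D2:**
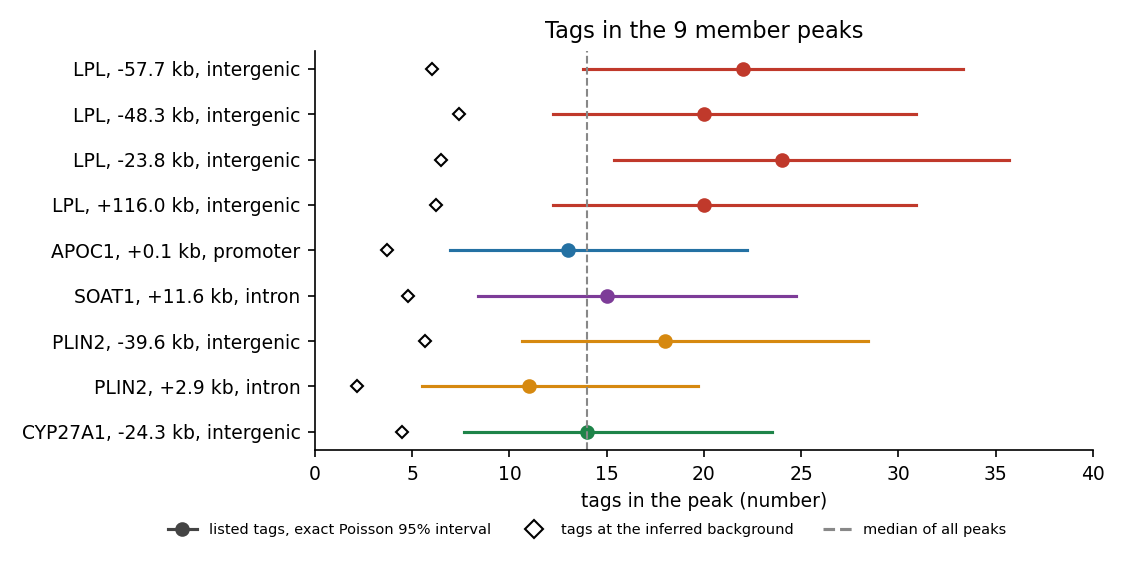
Number of tags in each of the 9 peaks (points) with exact Poisson 95% intervals (lines), the tags at the background inferred from each listed p-value (diamonds) and the median of all peaks, 14 tags (dashed line). The 4 LPL peaks hold 20 to 24 tags and the other 5 hold 11 to 18, with intervals that overlap.

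A further measure of strength sets the tags against the background. For each peak the background was solved from its listed p-value score, 10 times the negative logarithm, as the Poisson mean at which more than the listed tags has that p-value. The most frequent value over all peaks was 5.94 tags per kb, and 55.7% of the peaks lay within 1% of it. The APOC1 peak was the only one of the 9 at that genome-wide background. The LPL peaks had backgrounds of 1.27, 1.24, 1.49 and 1.45 times that value, around the chromosome 8 median of 1.32. The 4 LPL peaks held 3.64, 2.70, 3.69 and 3.22 times their background tags, against a median of 3.65 over all peaks. None of the 21 peaks within 500 kb of the LPL start was within 1% of the genome-wide background. The part of this chromosome-wide background in the LPL tag counts was not tested.

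**Figure D3:**
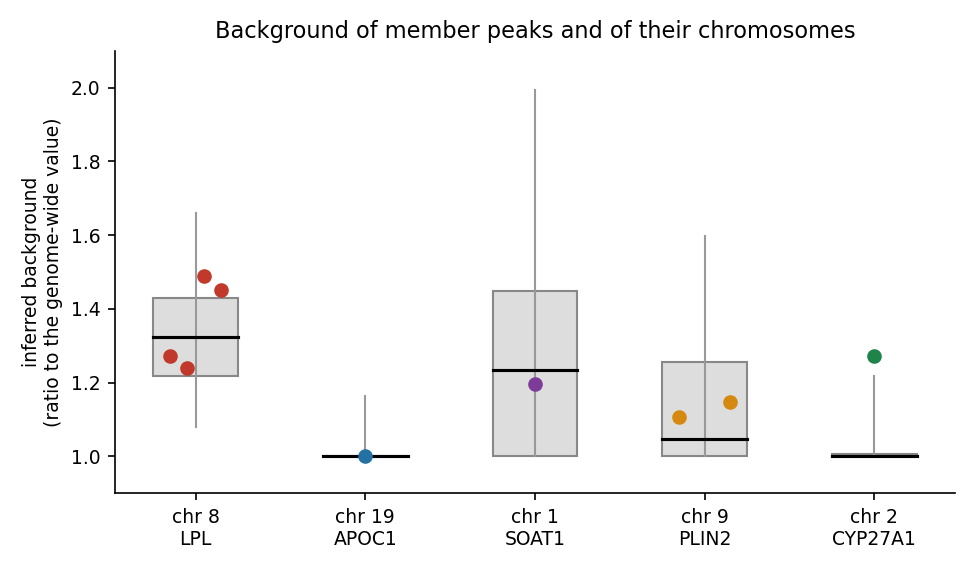
Background inferred from the p-value of each of the 9 peaks (points), as a ratio to the genome-wide value of 5.94 tags per kb, beside the peaks of the same chromosome (line: median, box: quartiles, whiskers: 5th to 95th percentile). The APOC1 peak sits at 1.00, the LPL peaks between 1.24 and 1.49 around the chromosome 8 median of 1.32, and the CYP27A1 peak at 1.27, above the chromosome 2 whisker.

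Of the secreted apolipoproteins, APOC1 had its promoter peak and APOE had none. The APOC1 peak held 13 tags (exact Poisson 95% interval 6.92 to 22.2), a fold enrichment of 8.17, a p-value score of 44.62 and a listed FDR of 0.15%. It was above 66.5% of all peaks by fold, a value that 4952 peaks shared, but above only 31.8% by p-value score and 32.9% by tags. The median FDR over all peaks was 0.16%. Among the 9 peaks the lowest score, 41.39 at CYP27A1, had an FDR of 0.14%, and the highest, 75.63 at LPL, 0.31%. A low FDR therefore did not mark a strong peak among them. The APOC1 peak held 3.51 times its background. APOE, the ligand by which remnant lipoproteins bind their receptors, lies next to APOC1. In the RefSeq gene order only TOMM40 and APOE stand between NECTIN2 and APOC1. The 25.1 kb between the listed end of NECTIN2 and the first APOC1 start held no peak, and the APOC1 peak was the nearest on that side, with 48.7 kb free of peaks up to an exonic NECTIN2 peak of 11 tags. On its other side, 7.41 kb away, lay a peak of 13 tags assigned to the pseudogene APOC1P1.

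No peak was assigned to either of the lipid transfer proteins. CETP moves cholesteryl ester and triglyceride between lipoproteins, and PLTP moves phospholipid. CETP lies between HERPUD1 and NLRC5, and the 44.7 kb between them held 1 peak of 11 tags with a fold enrichment of 8.99. That peak began 0.395 kb past the HERPUD1 end and 43.9 kb from the NLRC5 start, and was assigned to HERPUD1. PLTP lies between TNNC2 and PCIF1 together with 7 other protein-coding genes without a row. These 107 kb held 1 peak of 12 tags and a fold enrichment of 6.54, 10.3 kb from the PCIF1 start and assigned to PCIF1. Positions of the unassigned genes themselves on hg19 were not used here, so the distance of these peaks from CETP and PLTP is not given.

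SOAT1, the enzyme that esterifies cholesterol for storage, had 1 assigned peak in an intron, at chr1:179274207-179274880 and 11.6 kb into the 64.9 kb gene. It held 15 tags (8.40 to 24.7), a fold enrichment of 6.15 and 3.13 times its background, and was above 20.7% of all peaks by fold and 59.6% by tags.

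PLIN2, the coat protein of macrophage lipid droplets, had an intronic and an intergenic peak on chromosome 9. The intronic peak at chr9:19124386-19124703 lay 2.95 kb downstream of the NM_001122 start in a transcript of 11.7 kb. It was 318 bp long, a length below which only 0.556% of all peaks fell, with 11 tags (5.49 to 19.7), the smallest count that any listed peak has. The intergenic peak at chr9:19166757-19167615 lay 39.6 kb upstream and held 18 tags (10.7 to 28.4) over 859 bp. The order of these peaks turned with the measure. By fold enrichment the distal peak, at 8.85, was above 80.4% of all peaks and the intronic peak, at 6.47, above 24.97%. By tags over background the intronic peak held 5.08 times its background, above 96.1% of all peaks, and the distal peak 3.19 times, above 16.2%. By p-value score they were closer, at 55.16 and 51.08.

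**Figure D4:**
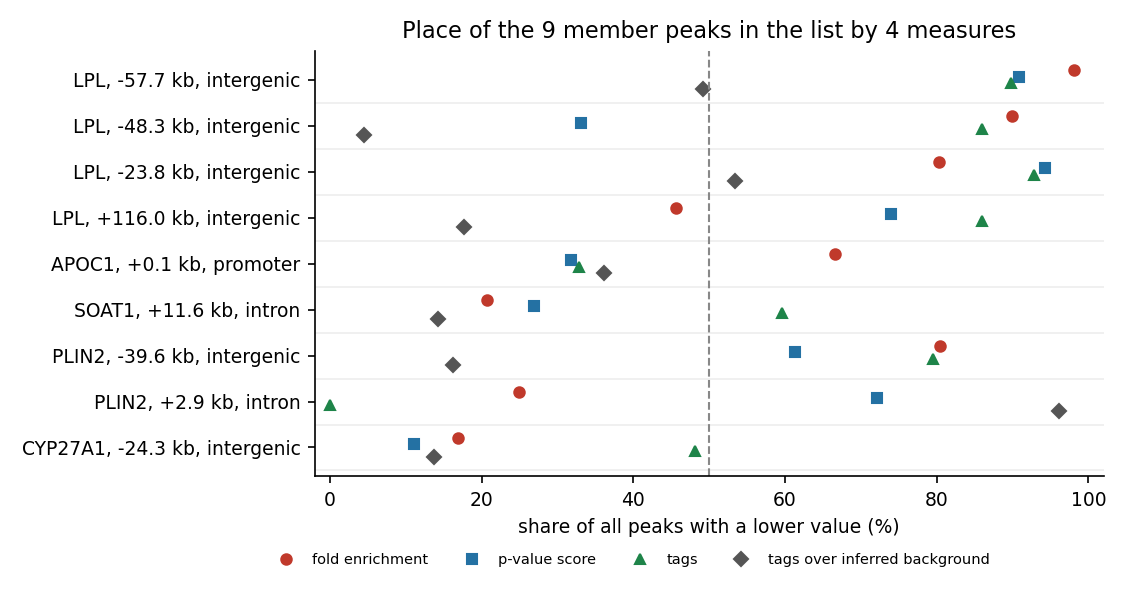
Share of all 45360 peaks with a lower value, in percent, for each of the 9 peaks by fold enrichment, p-value score, tags and tags over inferred background, with the middle of the list as a dashed line. The PLIN2 intronic peak runs from 0 by tags to 96.1 by tags over background, and the LPL peak 48.3 kb upstream from 4.44 to 89.9, while the CYP27A1 peak stays below 50 by each measure.

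NCEH1, which hydrolyses cholesteryl esters in macrophages, lies between GHSR and ECT2. The 303 kb between them held 4 peaks with 12, 14, 25 and 14 tags, assigned to GHSR and to the noncoding gene LINC02068. LPCAT3, which places polyunsaturated acyl chains in phospholipids, lies between CHD4 and CLEC4D, the nearest protein-coding genes with a row on either side, beyond 24 other protein-coding genes in each direction. Only 2 peaks lay in these 1950 kb, one near each end. Whether the table analysed here holds every row of this stretch is not known, so the lack of a row for LPCAT3, and with it the count of 5 of 10, holds for this table only. CYP27A1, the mitochondrial enzyme that hydroxylates the cholesterol side chain, had 1 intergenic peak at chr2:219622293-219622886, 24.3 kb upstream. It held 14 tags (7.65 to 23.5), a fold enrichment of 5.77 and 3.12 times its background. It was the lowest of the 9 by fold and by p-value score, above 16.8% and 11.1% of all peaks. Beyond it, 144 kb without a peak held the whole CYP27A1 gene.

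The surroundings were counted for the 5 genes with a peak, whose own peaks are part of the counts by choice. Within 500 kb on either side of the start there were 21 peaks at LPL, 25 at APOC1, 19 at SOAT1, 20 at PLIN2 and 21 at CYP27A1, of which 17, 24, 18, 18 and 20 were assigned to other genes. The densities of the chromosomes were 20.2, 24.96, 18.6, 16.5 and 15.04 peaks per Mb, in the same order. Each lay inside the exact Poisson 95% interval of its locus, the narrowest being 11.4 to 29.7 at SOAT1. With 1 Mb on either side, CYP27A1 had 26 peaks per Mb (19.4 to 34.1), an interval above the density of its chromosome, and the intervals of the other 4 loci held theirs. At APOC1 and CYP27A1, 16 of 25 and 16 of 21 of the peaks within 500 kb were at the genome-wide background, and at LPL, SOAT1 and PLIN2 none was. Over the whole chromosomes, the share at that background was 79.2% for APOC1 and 73.2% for CYP27A1. It was 1.76% for the chromosome of LPL, 25.6% for that of SOAT1 and 46.4% for that of PLIN2.

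Other genes of the same pathways were counted in 10 lists. Of 109 distinct genes, 68 had a peak, which is 62.4% (Wilson 95% interval 53.0% to 70.9%), against the 54.9% of all protein-coding genes. A promoter peak was assigned to 20, or 18.3% (12.2% to 26.6%), against 13.4%. Their median peak held 14 tags and a fold enrichment of 7.35, both equal to the medians of the whole list. The 9 peaks described above had higher medians of 18 and 8.17. Their median of tags over background was lower than that of the whole list, 3.22 against 3.65. Of these 9 peaks, 4 were those of LPL on chromosome 8, where the median over all peaks was 17 tags. Counts and medians of this kind are descriptions, and gene length was not matched.

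**Figure D5:**
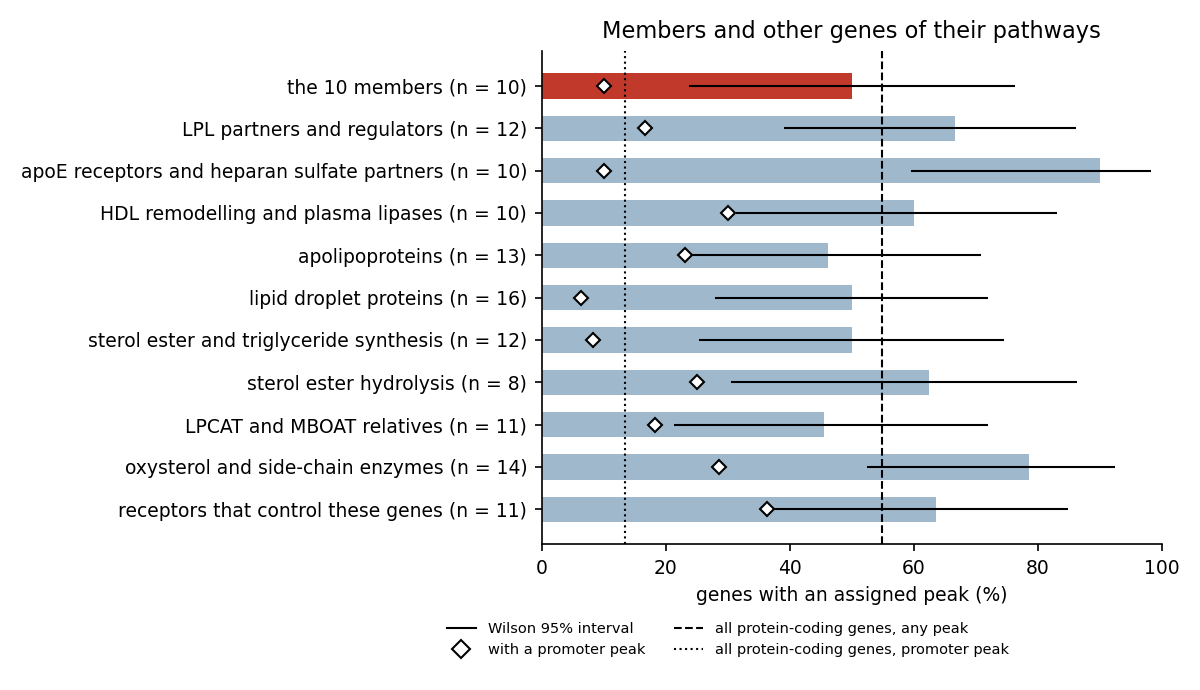
Percentage of genes with an assigned peak in the 10 genes (red) and in 10 lists of related genes (blue), with Wilson 95% intervals, the percentage with a promoter peak (diamonds) and both values over all protein-coding genes (dashed and dotted lines, 54.9% and 13.4%). The interval of the 10 genes runs from 23.7% to 76.3% across the dashed line, and only that of the apoE receptor list, from 59.6%, begins above it.

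Among the partners of LPL, 8 of 12 had a peak, with a promoter peak at APOC3, an inhibitor of the lipase, at -0.511 kb from its start (negative distances are upstream) with 17 tags and a fold enrichment of 10.62. The highest fold of that list, 12.25, was at an intergenic peak at -55.8 kb from PCSK6, a proprotein convertase, which also had a promoter peak of fold 6.54. SEL1L, needed for the maturation of LPL, had an intronic peak of fold 11.44. Of 10 receptors and partners of apoE, 9 had a peak and 1, SORL1, a promoter peak. SDC1, a heparan sulfate proteoglycan, had an intronic peak of fold 8.17. Of 13 further apolipoproteins, 6 had a peak and APOC3, APOL1 and APOM one at the promoter. The APOM peak was centred at -7 bp with 16 tags, and the APOL1 peak at 499 bp with 14. Of 10 genes of high-density lipoprotein remodelling, 6 had a peak, with promoter peaks at APOM, at the sterol transporter ABCG1 and at LIPG, endothelial lipase.

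Of 16 further lipid droplet proteins, 8 had a peak and 1, the triglyceride lipase PNPLA2, a promoter peak, with 13 tags. CIDEA, a droplet fusion protein, had the highest fold of that list, 10.62, at -22.5 kb. Of 12 genes of ester and triglyceride synthesis, 6 had a peak, with a promoter peak at the phosphatidate phosphatase LPIN2 and a fold of 10.37 at -12.2 kb from DGAT1, which makes triglyceride. Of 8 genes of ester hydrolysis, 5 had a peak. PNPLA3 had the highest fold there, 12.25, at -5.55 kb, and a promoter peak of 8.99, and CES1, a carboxylesterase, had an intergenic peak of 10.62. Of 11 relatives of LPCAT3, 5 had a peak. The promoter peak of PLA2G7, the lipoprotein-associated phospholipase, held 30 tags and a fold enrichment of 9.09 at 91 bp from its start, and LPCAT1 had one with 18 tags at 174 bp. MBOAT2, another acyltransferase, had an intergenic peak of fold 10.62.

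Of 14 enzymes and carriers of oxysterol and side-chain metabolism related to CYP27A1, 11 had a peak and 4 a promoter peak: HSD3B7 with 17 tags, CYP39A1 with 19, STAR with 11 and FDXR with 12. CYP8B1, an enzyme of bile acid synthesis, had the highest fold of the list, 9.80, at -5.52 kb, and CYP7B1, which hydroxylates oxysterols, an intronic peak of 9.19. Of 11 receptors and cofactors that control these genes, 7 had a peak and 4 a promoter peak, namely PPARA, PPARGC1A, PPARGC1B and RXRA. An intergenic RXRA peak 75.8 kb from the start had the highest fold of all the lists, 13.60, with 27 tags. RXRA had many other peaks, whose folds ran down to 4.74.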

How the data were processed

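PAX-8 ChIP-Seq peaks of C18-3OH-treated THP-1 foam cells were analysed as deposited. The authors' table gives per peak the tag count, the fold enrichment as a ratio, a p-value score, the FDR in percent, a class and the distance to the start of each assigned RefSeq transcript, on hg19 per the labels. The submitters' notes name FastQC. For the aligner, the duplicate handling, the peak caller and the library depth: not given in the sources used here. Hence tag counts have an unknown depth, and intervals cover counting error only. The 103443 lines were reduced to 45360 peaks and, for each gene, to the start nearest to the peak. A low count of tags was not filtered further.

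Symbols were matched to RefSeq GRCh38.p14 by accession (15627), symbol (58) or synonym (35), and 16 were unmatched. Only its names, gene order and promoter sequences were used, never its coordinates for hg19 peaks. Gene order served for genes without a row: peaks were counted between the facing ends of the nearest protein-coding genes with a row. For the inferred background, both logarithm bases (10 and e) were tried, each with the listed tag count included in the Poisson tail or not. The form that brought most peaks to 1 background, 55.7% against at most 22.7%, was kept. The 4 peaks at the largest score, 3100, were left out of it. The step recovered 100% of 45323 simulated peaks within 1%. Their scores were made with the same Poisson formula, so this checks the solving only. It does not test how the listed p-values were computed. Peak density of a chromosome was taken between its first and last peak.

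The 10 genes and the lists were chosen with earlier results of these data known. The text names all 10 genes, any list gene that has a promoter peak, at most 3 others per list by highest fold enrichment, genes sharing a peak with the 10, and those of the nearest peaks. Some results are not reported here. Alternatives were other limits on fold, FDR, distance and class, merged peaks, other windows and other ranking measures. Software was matplotlib 3.10.9, scipy 1.17.1, pandas 2.3.3 and numpy 2.4.6 under Python 3.11.15.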

Additional observations from a re-analysis of the deposited data

How the results depend on the processing

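Of 56 alternatives, 33 left a count within 1.5 times, or a density or share inside its interval, 23 moved a value further, and no direction was at stake. The number of peaks of the 10 genes, 9, and of genes with a peak, 5, was the same at a fold enrichment of at least 5, at an FDR of at most 0.5% and with peaks under 500 bp apart merged. These settings could not change the counts. The lowest fold of the 9 peaks was 5.77, their highest FDR 0.31% and their smallest gap to another peak 7.41 kb. A fold enrichment of at least 10 left 1 peak in 1 gene, the LPL peak at 10.91, since the listed values of the others are lower. Leaving out the intergenic class kept 3 peaks in 3 genes, by construction. The count of promoter peaks, 1, became 2 with a promoter limit of 5 kb, which takes in the PLIN2 intronic peak, and 0 at a fold enrichment of at least 10. A distance limit of 100 kb dropped 1 LPL peak. Ranks depended on the measure: the SOAT1 peak moved from 20.7% by fold to 59.6% by tags. The 3 settings by tags over background were chosen after the data were seen. They moved the PLIN2 intronic peak from 24.97% to 96.1% and its distal peak from 80.4% to 16.2%. The LPL peak 48.3 kb upstream moved from 89.9% to 4.44%. That measure divides the tags by peak length and background, and the cause of these shifts was not tested. No paired analysis was possible because there is 1 ChIP library and 1 Input library. The exact Poisson 95% intervals of the 9 tag counts, from 11 to 24, overlapped, and the peaks were 318 to 1006 bp long. Whether these counts differ beyond counting error was not tested.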

Other observations

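The listed fold enrichment moved in steps. Among peaks at the genome-wide background, 98.5% of the values were whole multiples of 0.817 within 0.006, against 9.43% of the other peaks. The values 5.72, 6.54, 7.35, 8.17, 8.99 and 9.80 covered 90.9% of the former. The APOC1 fold of 8.17 is one of these steps, so its rank is shared with all peaks on the same step and carries no finer order.

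The stretch around LPCAT3 was among the longest without a peak. Its 1943 kb gap was the third longest of chromosome 12 and longer than 99.95% of 45071 gaps between neighbouring autosomal peaks, whose median was 32.7 kb. The largest gap beside each of the other unassigned genes was 178 kb for NCEH1, 96.9 kb for PLTP, 77.2 kb for CETP and 48.7 kb for APOE. The cause of the LPCAT3 gap was not tested, and whether the table analysed here holds every row there is not known.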
